A study of Mus musculus with 4 samples.

Results

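The Notch pathway was followed through 10 genes in cultured mouse neural stem cells, namely the receptors Notch1, Notch2 and Notch3, the ligands Dll1, Dll3 and Jag1, and the effectors Hes1, Hes5, Hey1 and Nrarp. They were taken by gene symbol from tables of 55414 Ensembl genes, and each of the 10 symbols matched 1 identifier. All 10 passed the low-count filter and were among the 19912 genes tested. The study compared wild type cells with Mettl4 knockout cells, 2 libraries each. Mettl4 encodes an adenosine methyltransferase. The cells were primary cultures from the cortex of embryos at embryonic day 14.5, grown as neurospheres and then as an adherent monolayer in medium with EGF and basic FGF, in both genotypes. The labels do not say how the knockout was made, nor whether the 2 libraries of a genotype came from separate embryos or cultures. The p-values therefore measure only library-to-library spread, which may be technical for the knockout pair. The wild type pair differed in sex-linked RNA, given below, so its 2 libraries did not hold the same mix of cells. In bulk libraries, fewer cells of a type and less RNA per cell cannot be told apart.

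Notch signalling passes between touching cells. A ligand on one cell binds a Notch receptor on its neighbour, the receptor is cut by an ADAM protease and then by gamma-secretase, and the freed intracellular domain joins the DNA-binding protein RBPJ and Mastermind proteins to switch on target genes. Among these targets are the Hes and Hey genes, whose products repress proneural genes such as Neurog2, and Nrarp, whose product limits the signal. In the embryonic cortex the pathway is known for keeping radial glia as stem cells while their neighbours, which carry more ligand, become neurons.

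The promoters of 2 of the effectors are shown because RBPJ acts on this class of gene, and because Hes5 was the only matched member with its core letters. Each sequence is the stretch of 250 bases before the RefSeq transcription start, 5′ to 3′ along the gene, in build GRCm38.p6. Capitals mark the RBPJ core, TGGGAA or its reverse complement TTCCCA.
Hes5 promoter, chr4:154960673-154960922, plus strand: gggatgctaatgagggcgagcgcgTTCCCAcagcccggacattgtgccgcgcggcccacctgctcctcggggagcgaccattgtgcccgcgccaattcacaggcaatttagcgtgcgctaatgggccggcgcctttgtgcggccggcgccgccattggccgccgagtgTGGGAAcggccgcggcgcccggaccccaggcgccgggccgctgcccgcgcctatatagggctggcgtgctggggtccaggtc
Nrarp promoter, chr2:25180508-25180757, plus strand: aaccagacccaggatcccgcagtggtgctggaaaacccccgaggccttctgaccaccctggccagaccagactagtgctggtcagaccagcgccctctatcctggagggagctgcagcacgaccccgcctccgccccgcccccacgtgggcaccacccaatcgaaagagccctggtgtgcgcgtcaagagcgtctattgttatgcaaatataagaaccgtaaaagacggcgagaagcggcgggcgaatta
The Hes5 window held 2 cores in opposite orientations, starting at -226 and -82 from the start site. Both extend to the longer form GTGGGAA or TTCCCAC. The core occurred in 21.6% of all 32851 windows of this length in the table, and 2 or more cores in 2.77%. The longer form was found in 5.42%, and 2 or more of it in 0.161%. The table matched 8 of the 10 genes, with 9 windows, and Hes5 alone held the core among them. Hes1 and Hey1 were not matched. The Nrarp window held none of these letters, which says only that they are not in this window. Searched in the same way for the N box, CACNAG or CTNGTG, a site that Hes proteins bind, Nrarp held 2, Notch3 2, Notch1 1 and Notch2 1. Of all windows 36.7% hold at least 1 and 8.18% hold 2 or more. A match in letters is a description and not a binding site.

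The libraries held between 12812064 and 19310668 counts. Levels are given as CPM, the counts scaled to library size with TMM factors, and the libraries always in the order replicate 1, replicate 2. Mettl4 itself read 63.8 and 66.6 CPM in wild type cells and 15.6 and 17.6 CPM in knockout cells. Its log2 fold change, knockout minus wild type, was -1.97 (95% interval -2.34 to -1.60, adjusted p = 0.0051 by edgeR over all tested genes). Stem cell markers were present in every library, with Sox2 between 174 and 213 CPM and Nes between 258 and 399 CPM. The 9 listed stem cell and radial glial genes summed to 3681 and 3754 CPM in wild type cells and to 3365 and 3273 CPM in knockout cells. Their median log2 fold change was -0.07 with 3 positive and 0 called. Both knockout libraries were lower for 4 of them, Vim and Slc1a3 among these, beside 14.9% of all tested genes. Olig1, a factor of the oligodendrocyte lineage, was also abundant at 761 to 911 CPM, with a log2 fold change of 0.01. The 8 listed genes of that lineage had a median log2 fold change of 0.36 with 8 positive and 0 called. Both knockout libraries were higher for 5 of these 8, beside 12.5% of all tested genes. An unadjusted p under 0.05 (edgeR) was reached by 2, beside 2.77% of all tested genes. These were Sox10 at 1.57, on 7 to 61 counts, and Gpr17 at 1.04. The 8 astrocyte genes had a median of -0.32 with 2 positive and 0 called. Both knockout libraries were lower for 5 of them, beside 14.9% of all tested genes. The 2 with an unadjusted p under 0.05 (edgeR) went opposite ways. Aldh1l1, with the smaller p, was at 0.73 with both knockout libraries higher, and Sparcl1 was at -0.40. Whether these lists play a part in the member values was not tested. The 8 endothelial genes summed to between 5.07 and 6.34 CPM, from Cdh5 with at most 1 count to Esam with 25 to 30 counts in a library. The mural gene Pdgfrb had at most 3 counts. Wild type replicate 1 stood apart in sex-linked RNA. It had 48.9 CPM of the Y-linked Ddx3y and 295 CPM of Xist, while the other libraries had 0 counts of Ddx3y and between 3240 and 3628 CPM of Xist, both scaled to the library total alone. The 8 listed hypoxia genes summed to 1008 CPM in knockout replicate 2 and to between 581 and 617 CPM in the other libraries, with Ldha alone at 794 CPM in the former. For 6 of the 8 both knockout libraries were higher, beside 12.5% of all tested genes. An unadjusted p under 0.05 was reached by 4, beside 2.77% of all tested genes. By edgeR 0 were called, and the median log2 fold change was 0.59. The list was chosen with earlier results of these data known. Adm was lowest in knockout replicate 2, and Slc2a1 was level there with wild type replicate 1 (26.4 and 26.1 CPM).

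No member of the Notch set differed between the genotypes past the threshold. By the edgeR test 0 of 10 members were called at an adjusted p under 0.05, where 0.00502% of all tested genes were called, which is Mettl4 alone. At an unadjusted p under 0.05 there was 1 member, Nrarp, beside 2.77% of all tested genes, 1.15% higher and 1.62% lower in the knockout. DESeq2 and limma-voom also called 0 members, each with 1 at an unadjusted p under 0.05. The log2 fold changes split into 5 positive and 5 negative with a median of -0.02, and over all tested genes 49.7% were positive with a median of -0.00. The knockout and wild type libraries did not overlap for 4 members, Nrarp and Hey1 with both knockout libraries higher and Jag1 and Hes1 with both lower. Over all tested genes 27.4% did not overlap, 12.5% with both knockout libraries higher and 14.9% with both lower. With 10 members, a count of 4 is not a result about the set. With 2 libraries against 2, an exact permutation test of a single gene cannot go below p = 0.33.

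**Figure D1:**
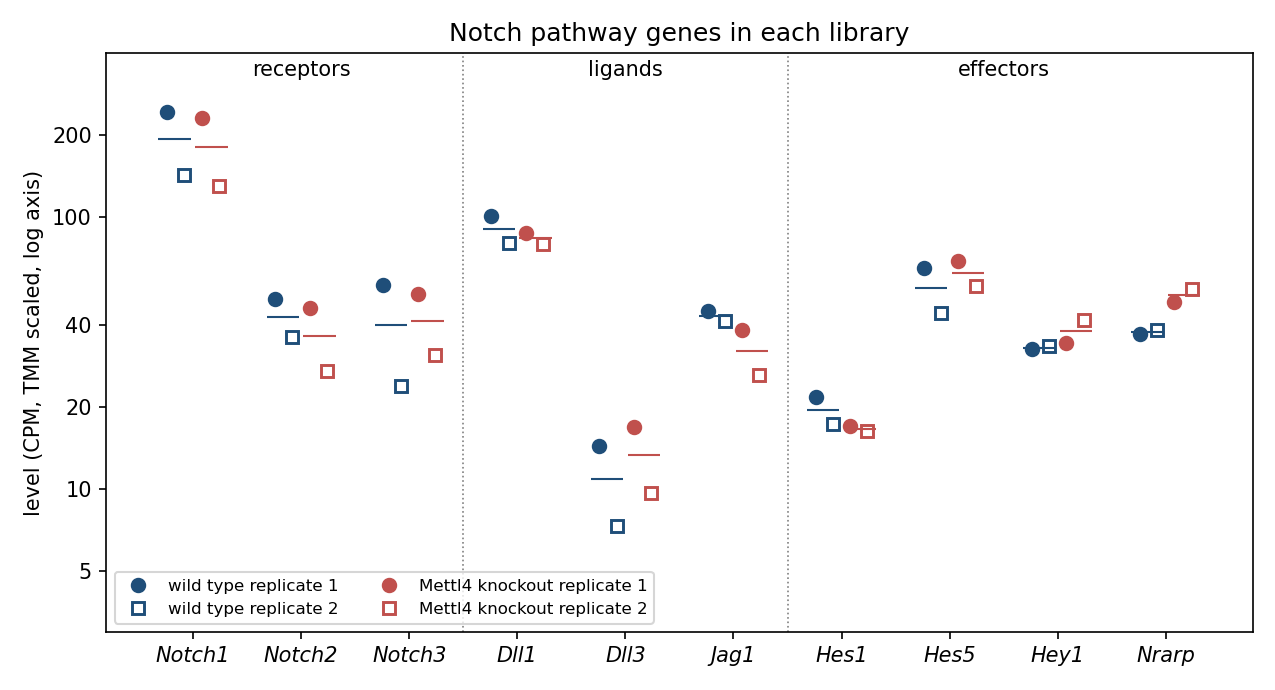
Level of each Notch gene in each library, in CPM on a log axis, with wild type in blue, Mettl4 knockout in red, replicate 1 as filled circles, replicate 2 as open squares and short lines for the group means. The receptors and Dll3 spread widely inside each genotype, from 129 to 244 CPM for Notch1, while Nrarp lies between 37.4 and 38.4 CPM in the wild type and between 48.9 and 54.6 CPM in the knockout.

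The receptors differed more between libraries of one genotype than between genotypes. Notch1 (ENSMUSG00000026923.16, chromosome 2), the main receptor of cortical radial glia, read 244 and 142 CPM in the wild type and 232 and 129 CPM in the knockout. The high library of each genotype was replicate 1, and the groups overlapped. The group means were 193 ± 71.5 CPM and 181 ± 72.2 CPM (SD, n = 2 each), with a log2 fold change of -0.10 and a 95% interval from -0.83 to 0.64 (edgeR). In fold terms that interval ran from 0.562 to 1.56.

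Notch2 (ENSMUSG00000027878.12, chromosome 3), a receptor of the same structure that is also found in radial glia, read 49.9 and 36.2 CPM in the wild type, then 46.3 and 27.1 CPM in the knockout. Its groups overlapped too, and its log2 fold change was -0.23 (SE 0.25). Notch3 (ENSMUSG00000038146.9, chromosome 17), which is best known from the mural cells of vessels, read 56.5 and 24.0 CPM in the wild type, then 52.1 and 31.1 CPM in the knockout. Its libraries again ran high in replicate 1 of each genotype, with a log2 fold change of 0.05 (SE 0.42). The listed mural, mesenchymal and meningeal markers summed to between 41.4 and 70.6 CPM, with replicate 1 the high library of each genotype (70.6 CPM in the wild type, 66.0 CPM in the knockout). Cspg4, which oligodendrocyte progenitors also express, and Foxc1 made up most of the sum. Of those 12 markers, 8 were under the low-count filter, Pdgfrb, Rgs5, Col1a1 and Dcn among them. The contractile genes Acta2 (6.64 and 3.66 CPM in the wild type, then 2.59 and 1.81 CPM in the knockout) and Tagln had log2 fold changes of -1.21 and -1.16 (edgeR, unadjusted p = 0.00784 and 0.0277, neither called). Their part in the Notch3 values was not tested.

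Among the ligands, Jag1 had the lowest fold change. Jag1 (ENSMUSG00000027276.8, chromosome 2), a ligand of the Serrate type, read 45.3 and 41.6 CPM in the wild type and 38.5 and 26.2 CPM in the knockout. Both knockout libraries lay below both wild type libraries, and knockout replicate 2 was the lowest. The log2 fold change was -0.43 with a 95% interval from -0.87 to 0.02 (edgeR, unadjusted p = 0.0601, adjusted p = 1.00). Without knockout replicate 2 it was -0.17, and without knockout replicate 1 it was -0.73.

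Dll1 (ENSMUSG00000014773.14, chromosome 17), the Delta ligand of committed progenitors and young neurons, was the steadiest of the receptors and ligands. It read 101 and 80.1 CPM in the wild type and 87.6 and 79.7 CPM in the knockout. The groups overlapped, and the log2 fold change was -0.11 with a 95% interval from -0.46 to 0.24. Dll3 (ENSMUSG00000003436.12, chromosome 7), a divergent ligand that acts on Notch inside its own cell, was the least abundant member in CPM. It read 14.5 and 7.32 CPM in the wild type, then 17.0 and 9.74 CPM in the knockout, on 120 to 322 counts. Replicate 1 was the high library of each genotype, and the groups overlapped. Its log2 fold change of 0.30 had an interval from -0.49 to 1.10, and its sign turned without wild type replicate 2 (-0.11) and without knockout replicate 1 (-0.15).

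The effectors did not share a direction. Hes5 (ENSMUSG00000048001.8, chromosome 4), a repressor and a direct target of Notch in radial glia, read 65.2 and 44.5 CPM in the wild type and 69.2 and 55.7 CPM in the knockout. Its groups overlapped, with a log2 fold change of 0.19 and a 95% interval from -0.26 to 0.63. Hes1 (ENSMUSG00000022528.9, chromosome 16), the related repressor, read 21.9 and 17.3 CPM in the wild type and 17.0 and 16.4 CPM in the knockout. Wild type replicate 1 was high and the other libraries lay close together, so the knockout libraries were below both wild type libraries by a small margin. The log2 fold change of Hes1 was -0.23 (SE 0.21), and without wild type replicate 1 it was -0.050. Hey1 (ENSMUSG00000040289.9, chromosome 3), a relative of the Hes repressors, read 32.7 and 33.6 CPM in the wild type and 34.6 and 41.8 CPM in the knockout. Knockout replicate 2 was the highest, and the log2 fold change was 0.20 (SE 0.17). Without that library it was 0.061.

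Nrarp (ENSMUSG00000078202.4, chromosome 2), the feedback inhibitor, had the smallest p of the 10. It read 37.4 and 38.4 CPM in the wild type and 48.9 and 54.6 CPM in the knockout, means of 37.9 ± 0.701 and 51.7 ± 4.07 CPM (SD, n = 2 each). Both knockout libraries were above both wild type libraries, and the libraries of each genotype lay close together. The fitted fold was 1.37 with a 95% interval from 1.07 to 1.74, and it did not pass after adjustment (edgeR, unadjusted p = 0.0158, adjusted p = 1.00). By unadjusted p it ranked 158 of the 19912 tested genes. The log2 fold change lay between 0.37 and 0.53 in the 4 fits that each left out a library. With groups that did not overlap, its sign could hardly turn in those fits, so they add no support. The smallest adjusted p of Nrarp under any alternative was 0.0667 (edgeR), with the replicate number as a block and the GC trend removed. That setting was chosen after seeing the data, and no label pairs the libraries. Knockout replicate 2, where Nrarp and Hey1 were highest, was also the library with the high hypoxia sum given above. Its part in these values was not tested, and without that library Nrarp was at 0.37.

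Nrarp has an annotated antisense neighbour with overlapping exons, Gm38287, which read 24.8 and 23.4 CPM in the wild type and 31.6 and 35.7 CPM in the knockout. Its counts were between 60.9% and 66.3% of those of Nrarp in every library. Hes5 overlaps the antisense gene Gm20421, whose counts were between 11.6% and 17.7% of its own. Gm20421 read 7.55 and 5.24 CPM in the wild type and 9.55 and 9.85 CPM in the knockout. The kit named in the labels does not mark strand, so reads from the stretch that Nrarp and Gm38287 share cannot be assigned by strand, and the same holds for Hes5 and Gm20421. How many of the counts come from such reads was not tested. Notch1, Notch2 and Notch3 also overlap small annotated transcripts, of which the largest share was that of Gm42820 at 13.8% of the Notch2 counts in wild type replicate 2. Dll1 shares exon sequence with A930024N18Rik on the opposite strand, for which no counts were given.

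**Figure D2:**
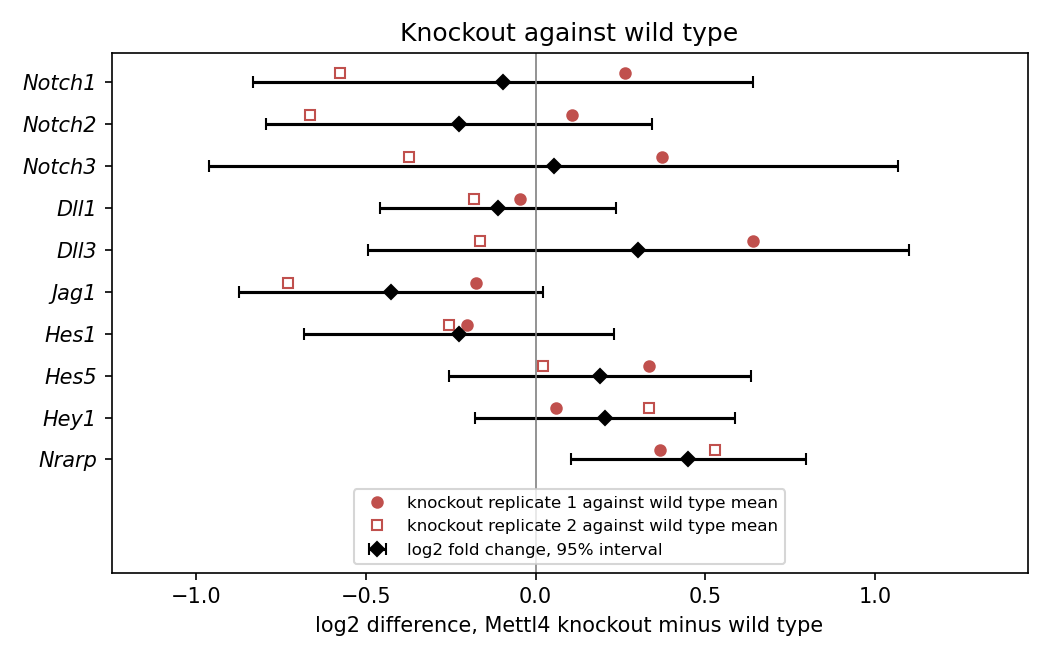
Log2 difference between Mettl4 knockout and wild type for each Notch gene. Black diamonds with bars give the edgeR log2 fold change with its 95% interval, and red symbols give each knockout library against the wild type mean. The interval leaves out 0 for Nrarp alone (0.10 to 0.80) before adjustment, and the knockout libraries fall on opposite sides of 0 for Notch1, Notch2, Notch3 and Dll3.

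Most of the spread lay between the libraries inside each genotype. In both genotypes the library numbered 1 was higher for 8 of 10 members, and the library numbered 2 was higher for Hey1 and Nrarp. Over all tested genes 33.8% were higher in replicate 1 of both genotypes and 30.5% in replicate 2 of both. No label says that same-numbered libraries share an embryo or a day. In the wild type the libraries numbered 1 and 2 also differ in sex-linked RNA, as given above. Its part in these differences was not tested. For Notch1 the log2 difference, replicate 1 minus replicate 2, was 0.77 in the wild type and 0.84 in the knockout. For Notch3 it was 1.24 and 0.75, and for Dll3 0.99 and 0.80. For Nrarp it was only -0.04 and -0.16. The mean size of this difference over the genotypes exceeded the size of the fold change for 6 of the 10 members.

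GC content moved with these differences. Genes were divided into 5 equal classes by the GC content of their longest annotated transcript. In the class with the most GC, the median difference between replicates 1 and 2 was 0.21 in the wild type and 0.18 in the knockout, and in the class with the least it was -0.12 and -0.09. Notch1, Notch3, Dll1, Dll3 and Hes5 lay in the class richest in GC. The 90th percentile of all genes in that class was 0.76 in the wild type and 0.82 in the knockout, so Notch1 lay just past it in both genotypes. With each library's GC trend removed, the Notch1 differences were 0.57 and 0.66 and those of Notch3 1.00 and 0.54, while Dll1 came to 0.18 and -0.01. Replicate 1 was then higher in both genotypes for 6 of the 10 members. With the trend removed the knockout effects kept their signs, and 0 members were called. Of those that moved by over 1.5 times, Notch1 went from -0.10 to -0.04, Dll1 from -0.11 to -0.06 and Notch3 from 0.05 to 0.14. Hes5 went from 0.19 to 0.27 and Nrarp from 0.45 to 0.50.

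**Figure D3:**
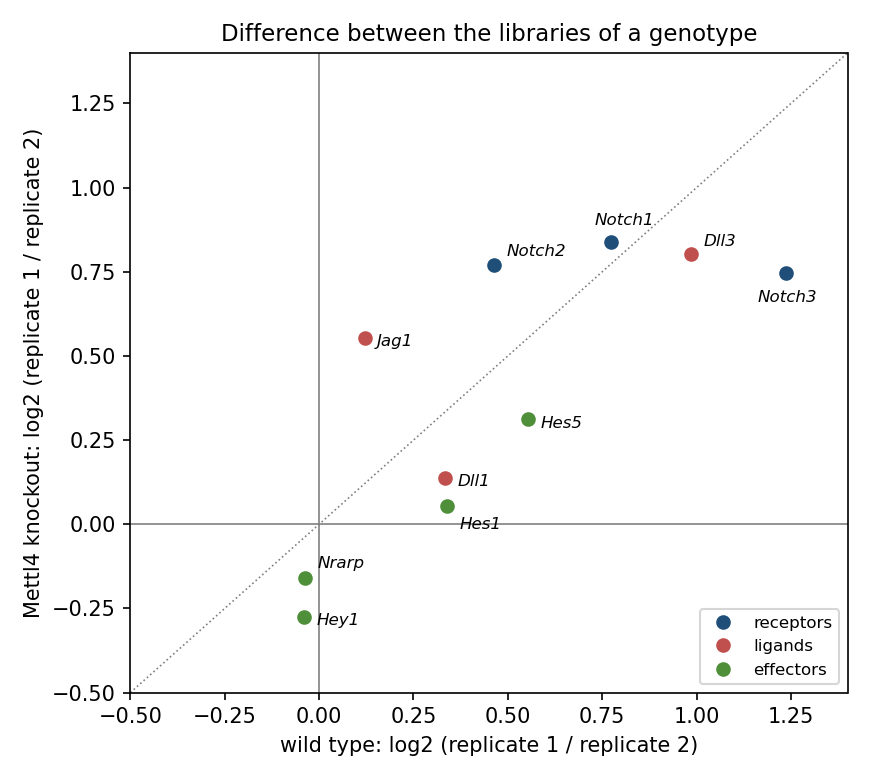
Log2 difference between replicate 1 and replicate 2 in the wild type (horizontal) and in the Mettl4 knockout (vertical) for the 10 Notch genes, coloured by role, with a dotted line of equal values. Notch1, Notch3 and Dll3 lie far to the upper right (Notch3 at 1.24 and 0.75). Notch2 lies at 0.77 in the knockout but at only 0.46 in the wild type, left of Hes5. Hey1 and Nrarp lie just below and left of 0.

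Levels of different genes were compared per kilobase of the longest annotated transcript. Hes5 was the highest, with 34.9 to 54.3 CPM per kilobase over the 4 libraries and a mean of 46.1. Dll1 followed at 24.3, then Notch1 at 19.7, Nrarp at 17.4, Hey1 at 14.7 and Hes1 at 12.4 CPM per kilobase. Jag1 (6.75), Notch3 (5.11), Dll3 (4.64) and Notch2 (3.80) were the lowest. Only 2 steps in this order were free of overlap between the 4-library ranges: Hes5 above Dll1, and Hes1 above Jag1. All other neighbours overlapped in range. Compared inside each library, Dll1 was above Notch1, Nrarp above Hey1, Jag1 above Notch3 and Notch3 above Dll3 in all 4. Notch1 above Nrarp, Hey1 above Hes1 and Dll3 above Notch2 held in 3 of the 4. With the length of all exons joined, Nrarp (17.4) stood above Notch1 (13.1), so their order depended on the length used.

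The mix of receptors varied less than their levels. Notch1 made up between 67.9% and 70.0% of the summed receptor level per kilobase in every library. Notch2 made up between 12.5% and 16.1% and Notch3 between 13.9% and 19.3%. Of the ligand level, Dll1 made up between 64.7% and 72.6%, Jag1 between 15.2% and 22.8% and Dll3 between 8.58% and 17.2%. All these shares depend on the length used. With all exons joined, the Notch1 mean was 13.1 instead of 19.7 CPM per kilobase. Notch2 (3.70 instead of 3.80) and Notch3 (5.06 instead of 5.11) hardly moved, so the Notch1 share would be lower. The ratio of Hes5 to Hes1 per kilobase was 3.44 and 2.96 in wild type cells, against 4.68 and 3.91 in knockout cells. Both knockout ratios were above both wild type ratios, but no background share was taken for ratios between genes. Of all single tested genes, 27.4% did not overlap between the genotypes. Hes5 by itself overlapped, and Hes1 separated by 17.0 against 17.3 CPM. Counts of the antisense gene Gm20421 were 11.6% and 11.8% of those of Hes5 in wild type cells, then 13.8% and 17.7% in knockout cells. The part of Gm20421 in the ratio was not tested. The size of the ratio depends on the length too. With all exons joined, the Hes1 mean was 8.92 instead of 12.4 CPM per kilobase, and that of Hes5 43.0 instead of 46.1. An exact permutation test of a ratio cannot go below p = 0.33 with 2 libraries against 2.

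**Figure D4:**
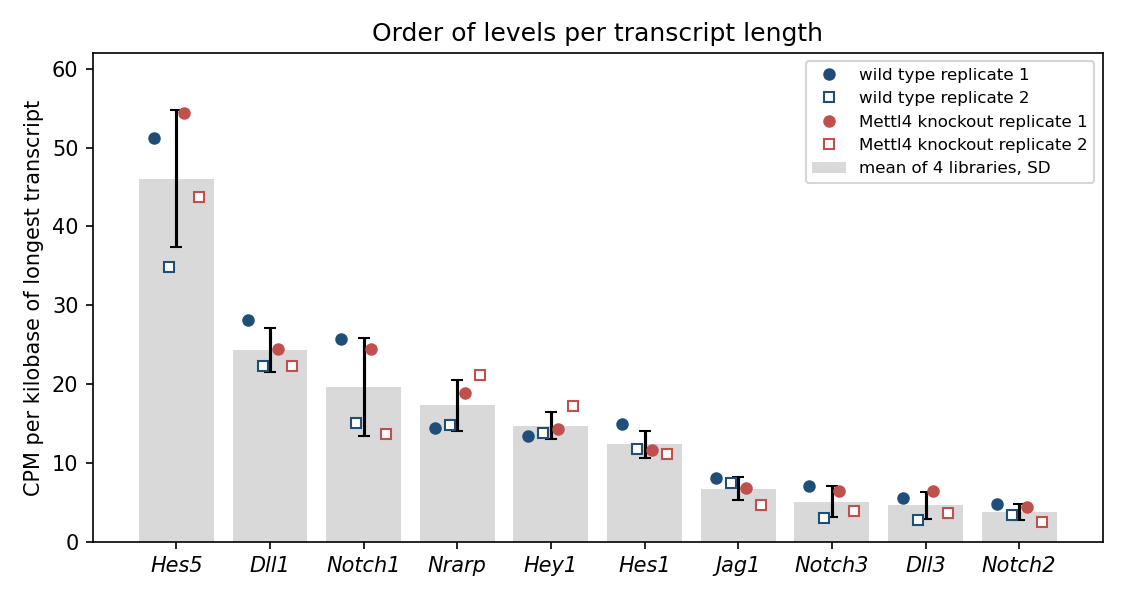
CPM per kilobase of the longest transcript for the 10 Notch genes in falling order, with grey bars for the mean of the 4 libraries from a zero baseline, bars of 1 SD, and symbols for each library as named in the key. Hes5 (mean 46.1) lies above all others in every library, and Notch1 shows the widest spread next to Hes5.

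The rest of the pathway was read from a list of 75 other genes by role, of which 68 were tested. By edgeR 0 of them were called over all genes. Their fold changes split into 36 positive and 32 negative, and the median was 0.01 on the log2 scale. At an unadjusted p under 0.05 there were 2, Hes6 and Sox9, against 2.77% of all tested genes. Hes6, which opposes Hes1 and accompanies neuronal commitment, read 70.9 and 71.4 CPM in the wild type and 52.7 and 48.7 CPM in the knockout, with a log2 fold change of -0.49 (95% interval -0.81 to -0.17). Both its knockout libraries were lower, beside 14.9% of all tested genes. Its value lay between -0.55 and -0.43 in the fits that left out a library. With groups that did not overlap, the sign could hardly turn in those fits, so they add no support. Sox9, a radial glial factor reported downstream of Notch, read 63.2 and 57.4 against 84.2 and 81.3 CPM. In the remaining Hes and Hey genes, Hey2 was low at 0.711 to 1.77 CPM, and Hes2, Hes3, Hes7 and Heyl were under the filter with at most 8 counts in a library.

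For the enzymes that cut the receptor, 6 of 10 tested genes were positive and 4 negative, with 0 called. Aph1a and Aph1c, subunits of gamma-secretase, were at -0.21 and -0.32. Of the 5 genes that put sugars on the receptor, 2 were positive and 3 negative. Lfng, a Fringe enzyme that shifts the receptor's preference among ligands, was at -0.18, Pofut1 at 0.15 and Poglut1 at 0.10.

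Of 6 genes of ligand endocytosis, 2 were positive and 4 negative. Mib1, the ubiquitin ligase that activates ligands, was at 0.16, and the endocytic adaptor Epn1 at -0.13. Neurl1b, another ligand ubiquitin ligase, read 35.4 and 32.6 CPM in the wild type and 33.9 and 11.1 CPM in the knockout. Knockout replicate 2 alone was low. Without knockout replicate 1 Neurl1b passed the threshold (-1.62, edgeR adjusted p = 0.0013), and without knockout replicate 2 it was at -0.00.

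Of 9 genes of the nuclear complex, 6 were positive and 3 negative, and Rbpj itself, named here after its values were seen, read 91.8, 88.4, 88.2 and 92.4 CPM with a log2 fold change of 0.00 (SE 0.14). Kat2a, an acetyltransferase, was at 0.28, the coactivator Ep300 at 0.13 and the Mastermind gene Maml1 at 0.17. Of 12 corepressor genes, 10 were positive and 2 negative, and their median was 0.08. The Groucho genes Tle3 and Tle1 were at -0.40 and 0.16, and the deacetylase Hdac1 at 0.29. Of 11 inhibitors and turnover genes, 4 were positive and 7 negative, with the Deltex genes Dtx1 and Dtx4 at -0.42 and -0.17 and the ubiquitin ligase subunit Fbxw7 at -0.16. Of 8 other reported targets, 4 were positive and 4 negative, among them Fabp7, a radial glial lipid carrier, at 0.36 (SE 0.28) and Id1 at -0.16. Among other receptors and ligands, Dner was at -0.20 (SE 0.22). Notch4 read 1.65 to 2.32 CPM and Dll4 0.422 to 0.930 CPM, while Jag2, Dlk1 and Dlk2 were under the filter.

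Of the 8 proneural genes on the opposite side of Hes repression, 3 were tested and 0 called. Insm1 was at 0.06 (SE 0.27) and Neurod4 at -0.41 (SE 0.52) on under 1.1 CPM in every library. Neurog2 had between 1 and 5 counts and Eomes, which marks intermediate progenitors, between 3 and 6 counts. Neurog1 and Atoh1 had 0 counts in every library, which allows up to 0.234 CPM in the shallowest library and 0.155 CPM in the deepest (3 counts of the total, counting error only).

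**Figure D5:**
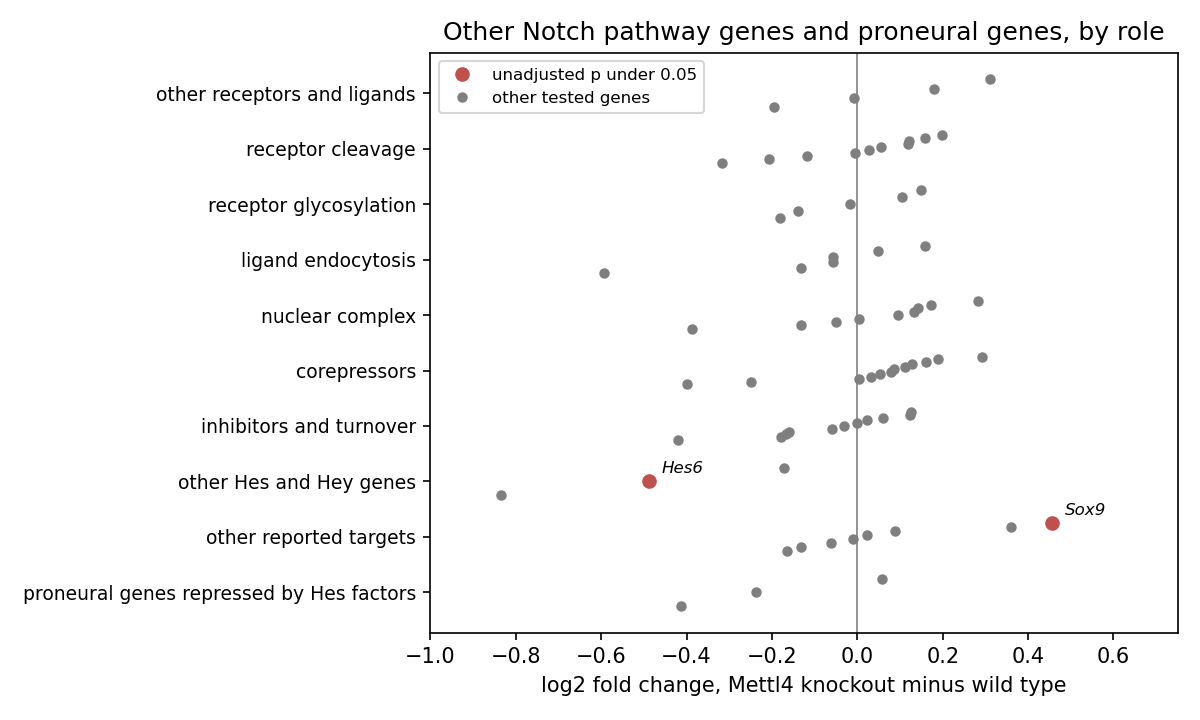
Log2 fold change, Mettl4 knockout minus wild type, of the tested genes of the wider Notch list and the proneural list, 1 point per gene in rows by role. Red points mark an unadjusted p under 0.05, which are Hes6 (-0.49) and Sox9 (0.46), and 0 genes passed after adjustment.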

How the data were processed

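RNA sequencing gave 2 libraries of wild type and 2 of Mettl4 knockout neural stem cells. The deposited values are raw counts of reads for each gene. The submitters' processing notes name STAR 2.7.10, featureCounts and build GRCm39. Strand and multiple-match settings: not given in the sources used here. The members and lists were chosen with earlier results of these data known.

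GENCODE M21 supplied a symbol for 52081 of the 55414 identifiers. Transcript length and GC content came from it as well, and since it belongs to build GRCm38, levels per kilobase are approximate. Promoters came from RefSeq, build GRCm38.p6. Genes under the filterByExpr limits (minimum count 10) were dropped, TMM factors were applied, and edgeR 4.0.16 in R 4.3.3 tested the genotypes with the quasi-likelihood F test, robust=TRUE. Benjamini-Hochberg adjustment ran over 19912 genes with a threshold of 0.05. Each SE is the log2 fold change divided by the square root of F, and each interval is a 95% interval. The test was also run on simulated counts, drawn independently for each gene and library. These carried neither the GC trend nor the correlation of same-numbered libraries, so that check does not cover them. Named genes were Mettl4, the 10 members, and up to 3 genes with the smallest p in each role of the other lists. Some genes taken by this rule are not reported here. Alternatives were other scaling factors and filters, DESeq2 1.42.0, limma-voom (limma 3.58.1), robust=FALSE, legacy=FALSE, the replicate number as a block and leaving out each library. Removing each library's GC trend, alone and with the block, was chosen after seeing the data, with a natural spline of 5 degrees of freedom. A GC value was known for 98.5% of tested genes. Limits for a count of 0 cover counting error only, since the reads carry no molecular identifiers. Replicates of a genotype differed by more than sampling noise, with a chi-square over its degrees of freedom of 18.7 for the wild type pair and 29.5 for the knockout pair, so none was merged.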

Additional observations from a re-analysis of the deposited data

How the results depend on the processing

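Over 16 alternatives the count of called Notch members was 0 each time, the proneural count was 0 each time, and Mettl4 remained called. The signs of the 10 member fold changes held under the 12 alternatives that keep all libraries. Leaving out a library turned the sign of 6 members. The ranges over those 4 fits were -0.57 to 0.34 for Notch1, -0.66 to 0.11 for Notch2, -0.43 to 0.80 for Notch3, -0.26 to 0.064 for Dll1, -0.15 to 0.87 for Dll3 and -0.052 to 0.49 for Hes5. Of the other named genes, ranges that crossed 0 were -0.53 to 0.079 for Dner, -0.35 to 0.77 for Dll4, -0.39 to 0.078 for Lfng, -0.013 to 0.21 for Poglut1, -0.54 to 0.18 for Epn1, -0.033 to 0.42 for Maml1, -0.049 to 0.57 for Hdac1, -0.59 to 0.15 for Bhlhe40, -0.036 to 0.67 for Fabp7 and -0.29 to 0.34 for Insm1. In these fits a lone library is assumed to vary like the others.

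The count of called genes moved from 1 of 19912 to 41 of 33177 without a low-count filter. Of the same 19912 it was 6 with DESeq2, 9 with the replicate block and 73 with the replicate block and the GC trend removed, and ran from 1 to 47 when a library was left out. Without wild type replicate 1 it was 31, without wild type replicate 2 it was 17 and without knockout replicate 1 it was 47. The wider Notch count moved from 0 to 1 with the replicate block and the GC trend removed, through Sox9 (0.48, edgeR adjusted p = 0.048), and ran from 0 to 1 when a library was left out, through Neurl1b. The cause was not tested. Deviations of same-numbered libraries correlated at 0.23 over genes, but only 2 pairs exist and no label pairs them. With the block alone, Nrarp was at 0.45 (adjusted p = 0.26) and Jag1 at -0.45 (0.42). The receptors had intervals over 1 log2 unit wide on 393 to 4389 counts, with 2 libraries per genotype. How far depth or spread between libraries sets that width was not tested.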
